A study of Homo sapiens with 4 samples.

Results

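The regulators of the integrated stress response are described here by 10 genes chosen by name: ATF4, ATF3, ATF5, DDIT3, DDIT4, TRIB3, CHAC1, PPP1R15A, CEBPB and CEBPG. Of these, 9 had a transcript cluster of their own on the array, 1 cluster each, among 22393 genes measured that way. ATF5 was read only by a cluster that it shares with the microRNA gene MIR4751, and that cluster is given apart. All 9 passed a filter that left out the dimmest genes, so they stand among 16790 tested genes. RNA came from cultures labelled as the human myeloma lines OPM2 and KMS11, each on 1 array without an agent and on 1 array after 48 h with KPT-9274, which makes 4 arrays. KPT-9274 is a small molecule known to inhibit the kinase PAK4 and NAMPT, the enzyme that salvages NAD. Dose, vehicle and the culture time of the controls are not in the labels, so the agent and time in culture cannot be told apart, and nothing there tells of separate cultures.

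The integrated stress response begins when a kinase (PERK, GCN2, PKR or HRI) phosphorylates the initiation factor eIF2. Most protein synthesis then slows, while the mRNA of the transcription factor ATF4 is translated more, because short reading frames ahead of its coding sequence otherwise hold ribosomes back. ATF4 pairs with other basic leucine zipper proteins, among them CEBPG, CEBPB and DDIT3 (CHOP), and switches on genes for amino acid uptake and synthesis, for tRNA charging and for its own restraint. PPP1R15A (GADD34) closes the loop by bringing a phosphatase to eIF2. Among the kinases, PERK is the one that responds to unfolded protein in the endoplasmic reticulum. Whether the cells studied here depend on PERK was not tested. An array reads mRNA only, so it shows neither the translation of ATF4 nor the phosphorylation of eIF2.

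The sequences ahead of the start sites are shown for 3 regulators that the results turn on, because ATF4 and its partners are known to act through short elements in such windows. They are the 250 bases before the start of transcription in RefSeq on GRCh38.p14, all on the plus strand: PPP1R15A at chr19:48872171-48872420, CHAC1 at chr15:40953221-40953470 and DDIT4 at chr10:72273674-72273923. Capitals mark matches, on either strand, to the C/EBP-ATF composite core TGATGNAA, the ATF/CREB core TGACGTCA and the box CCAAT. The CCAAT box was searched as a general promoter element and is not taken here as a site of ATF4 or its partners.
PPP1R15A: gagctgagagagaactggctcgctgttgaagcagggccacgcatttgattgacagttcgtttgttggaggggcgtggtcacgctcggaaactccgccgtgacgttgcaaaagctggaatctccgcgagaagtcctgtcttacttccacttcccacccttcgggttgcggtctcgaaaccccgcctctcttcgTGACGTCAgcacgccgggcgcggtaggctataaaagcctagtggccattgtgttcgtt
CHAC1: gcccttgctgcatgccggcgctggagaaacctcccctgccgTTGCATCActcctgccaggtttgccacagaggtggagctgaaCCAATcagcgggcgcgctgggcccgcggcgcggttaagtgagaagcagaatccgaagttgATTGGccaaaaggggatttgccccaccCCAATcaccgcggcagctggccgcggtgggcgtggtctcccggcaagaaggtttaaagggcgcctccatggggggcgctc
DDIT4: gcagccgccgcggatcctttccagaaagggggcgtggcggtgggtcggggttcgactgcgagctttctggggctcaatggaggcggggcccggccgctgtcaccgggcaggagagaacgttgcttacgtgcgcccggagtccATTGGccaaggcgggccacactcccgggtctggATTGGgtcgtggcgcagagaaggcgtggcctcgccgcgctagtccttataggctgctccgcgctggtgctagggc

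PPP1R15A holds the ATF/CREB core TGACGTCA 58 to 51 bases before its start, and it was the only regulator with that motif in its window. CHAC1 holds the composite core on the minus strand, as TTGCATCA 209 to 202 bases before its start, and 3 CCAAT boxes. DDIT4 holds 2 CCAAT boxes on the minus strand and neither core. The composite core was also found ahead of 1 of 2 listed starts of ATF3 and 1 of 2 of CEBPG, so 3 of the 10 genes had it in at least 1 window, and 6 of the 10 had a CCAAT box. Counted by window, of 19 for the 10 genes 3 held TGATGNAA, 1 TGACGTCA and 7 CCAAT, against 3.14%, 1.65% and 32.0% of all 35116 windows in the table, and a search for the unfolded protein response core TGACGTGG (0.612% of windows) found none in the 10 genes. The windows of DDIT3, of ATF4 and of TRIB3 largely overlap within each gene, so the 19 are not separate sequences. The same CCAAT boxes of DDIT3 are counted in more than 1 window. No 2 matches overlapped in these windows. A match is a string of letters and not a measured binding site, and a missing match says only that the letters are not in the window searched.

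Values are log2 signal, where 1 unit is a 2-fold difference, and a level can be compared between arrays but not between genes. The 95th percentile of 392 olfactory receptor genes, which blood cells hardly use, served as the background of each array. In OPM2 it was 6.81 before and 7.65 after treatment, and in the pair labelled KMS11 6.45 and 6.56. The raised background of the treated OPM2 array hides lower values there. The markers went against the KMS11 label. Of 10 plasma cell markers, 8 exceeded it in OPM2 without the agent and 7 with it, but 4 on each KMS11 array (log2 of their summed signal 17.33, 17.02, 12.10 and 11.79), and SDC1 was under background on all 4 arrays. Of 7 erythroid and megakaryocytic markers with a cluster, 6 lay above background on each KMS11 array and 1 and 0 on the OPM2 arrays (log2 sums 16.46 and 16.59 against 9.04 and 9.17), with GATA1 and RHAG under background in OPM2. Of 9 myeloid markers 4 were above background on each KMS11 array, against 1 and 0 in OPM2 (log2 sums 16.51 and 16.20 against 8.73 and 9.03), while MPO, CSF3R, CD14, AZU1 and ELANE were under background on all 4. None of 6 T cell and 5 fibroblast markers was above background on any array. Some markers differed with treatment too, and none passed limma's test. In OPM2 4 of the 10 plasma cell markers were at least 2-fold lower (5.51% of all tested genes), with a median of -0.77. These were IRF4 with -2.38, TNFRSF17 with -1.88, XBP1 with -1.40 and POU2AF1 with -1.39. On the KMS11-labelled arrays the markers at least 2-fold lower (4.43% of all tested genes) were XBP1 with -1.14, TAL1 with -1.13 and NFE2 with -1.19. The second pair of arrays is therefore called KMS11-labelled, values are given for each line apart, and the part of these markers in any result was not tested. In bulk RNA, fewer cells of a kind and less RNA per cell cannot be told apart.

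PPP1R15A, the stress-induced subunit that directs protein phosphatase 1 to eIF2, read higher after KPT-9274 in both lines. In OPM2 its signal was 7.14 without and 8.86 with the agent, and on the KMS11-labelled pair 6.97 and 8.44. All 4 values lay above background and both treated values lay above both controls. The controls were nearer to background (6.81 in OPM2 and 6.45 on the KMS11-labelled array) than the treated values (7.65 and 6.56). The change was 1.72 in OPM2, or 3.29-fold, and 1.47 on the KMS11-labelled arrays, or 2.77-fold. Ranked from the most increased, it stood at place 46 of 16790 tested genes in OPM2 and 77 on the KMS11-labelled arrays, and 55 genes (0.328%) were at least 2-fold higher in both. With the lines as the replicates of the agent, limma gave PPP1R15A a change of 1.60 ± 0.19 (SE) and an adjusted p of 0.325. This does not pass (0.0641 to 1.0 over the alternatives, the lowest with quantile normalization). No gene had a smaller adjusted p in this fit, but other genes share the value, EIF2AK3, XBP1 and CREBRF among them. PPP1R15B, its constitutive counterpart, read 13.10 and 13.13 in OPM2 and 12.64 and 11.77 on the KMS11-labelled arrays.

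DDIT4, CHAC1 and TRIB3 read at least 2-fold lower after KPT-9274 on the KMS11-labelled arrays. DDIT4 (REDD1), which restrains the growth kinase mTORC1, read 9.86 on the control array and 7.08 on the treated one, a change of -2.78 or 6.87-fold lower, which put it at place 17 from the most decreased. TRIB3, a pseudokinase that binds ATF4 and damps it, read 8.28 and 6.90, a change of -1.38 or 2.60-fold lower. CHAC1, which breaks down glutathione, read 7.76 and then 6.29, under the treated array's background, so it was at least 2.30-fold lower.

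In OPM2 the same 3 genes gave a bound or no reading, since the treated array's background was high. DDIT4 read 7.92 and then 7.24, under the treated array's background of 7.65, and was lower by at least 0.27 on the log2 scale. TRIB3 read 7.55 and 7.22, where the raised background exceeds the control value and no change can be read. CHAC1, at 6.75 and 6.63, was under background on both OPM2 arrays. By limma over both lines DDIT4 had -1.73 ± 0.57 (SE, adjusted p = 0.372), TRIB3 -0.86 ± 0.32 (adjusted p = 0.411) and CHAC1 -0.80 ± 0.39 (adjusted p = 0.479), computed on the values as deposited, and none passed.

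**Figure D1:**
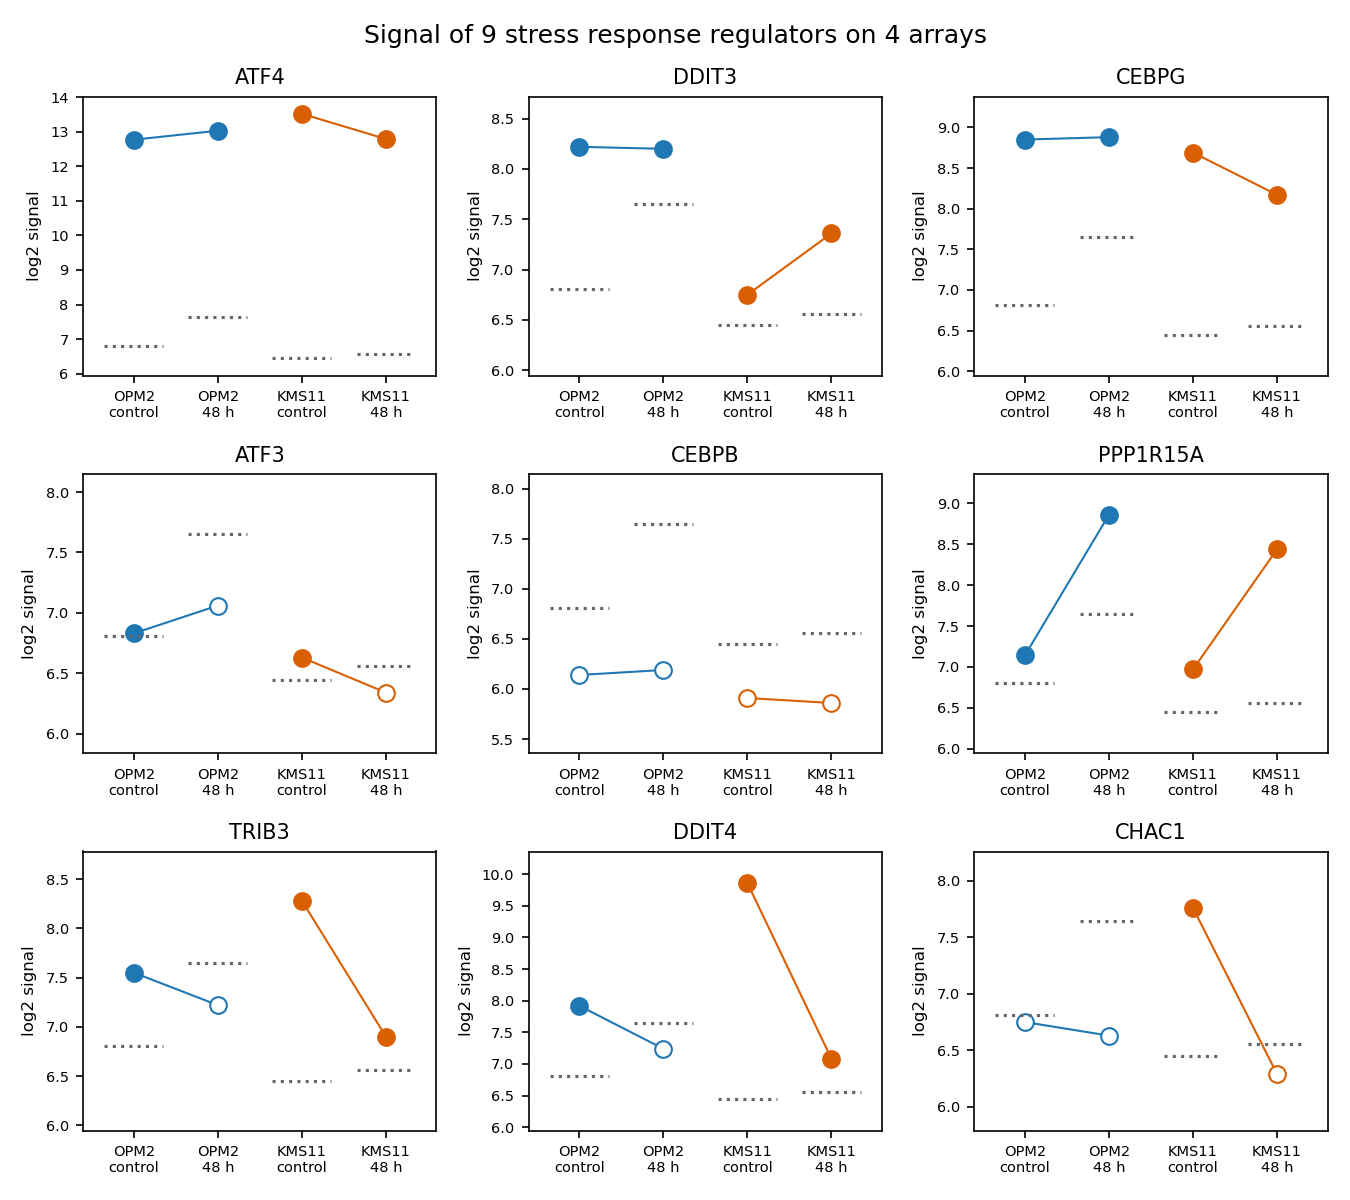
Log2 signal (vertical axes, each with its own range) of 9 regulators on the OPM2 arrays (blue) and the KMS11-labelled arrays (orange), control and after 48 h of KPT-9274, 1 array per point. Dotted bars are each array's background and open points lie under it: PPP1R15A goes from 7.14 to 8.86 and from 6.97 to 8.44, while DDIT4 goes from 9.86 to 7.08 on the KMS11-labelled arrays.

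ATF4 itself, the central factor, had mRNA signal above background on all 4 arrays. It read 12.77 and 13.03 in OPM2, a change of 0.26 that ranged from 0.11 to 0.26 with the scaling of the arrays. On the KMS11-labelled arrays it read 13.52 and 12.79, a change of -0.73 or 1.66-fold lower. The treated KMS11-labelled array and the OPM2 control array were nearly level, and the control and treated groups overlap. DDIT3 (CHOP), which links prolonged stress to cell death, read 8.22 and 8.20 in OPM2 and 6.75 and 7.36 on the KMS11-labelled arrays, changes of -0.02 and 0.61. Its direction on the KMS11-labelled arrays was thus opposite to that of ATF4.

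CEBPG, a partner of ATF4 at amino acid response genes, read 8.85 and 8.88 in OPM2 and 8.69 and 8.17 on the KMS11-labelled arrays. Its OPM2 change of 0.03 moved between -0.12 and 0.12 with the scaling of the arrays and has no settled sign, and its change on the KMS11-labelled arrays was -0.52. ATF3, a stress-induced repressor in the ATF4 cascade, lay close to background everywhere, with 6.83 and 7.06 in OPM2 and 6.63 and 6.34 on the KMS11-labelled arrays. Both treated values were under background, so no OPM2 change can be read, and on the KMS11-labelled arrays ATF3 was lower by at least 0.07. CEBPB, another partner of ATF4, read 5.86 to 6.19 and was under background on all 4 arrays, so no change can be read.

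The cluster shared by ATF5 and MIR4751 read 8.37 and 7.48 in OPM2, the latter under background, and 6.97 and 6.84 on the KMS11-labelled arrays. ATF5 is a close relative of ATF4, and this signal cannot be assigned to it alone. The cluster was left out of the tests and counts.

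Across the 9 regulators with a cluster of their own, 4 lay above background on all 4 arrays: ATF4, DDIT3, CEBPG and PPP1R15A. In OPM2 1 of 9 was at least 2-fold higher (2.51% of all tested genes) and 0 of 9 at least 2-fold lower (5.51%). On the KMS11-labelled arrays 1 of 9 was at least 2-fold higher (1.64%) and 3 of 9 at least 2-fold lower (4.43%). The median change of the 9 was 0.03 in OPM2, as over all tested genes, and -0.52 on the KMS11-labelled arrays, against 0.04 over all tested genes. In OPM2, however, ATF3, CEBPB, TRIB3, CHAC1 and DDIT4 had at least 1 array under background. The OPM2 median and the 0 of 9 therefore include changes that are a bound or cannot be read. They do not show that the set stayed level in OPM2. Of the 4 measured on all arrays, PPP1R15A was higher in both lines (34.9% of all tested genes). ATF4, DDIT3 and CEBPG had changes of opposite sign (35.3%), those of DDIT3 and CEBPG in OPM2 being near 0. No regulator passed limma's treatment test at an adjusted p below 0.05, and no tested gene did (0%), while 2 of the 9, PPP1R15A and DDIT4, were below 0.05 before adjustment, against 12.6% of tested genes.

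**Figure D2:**
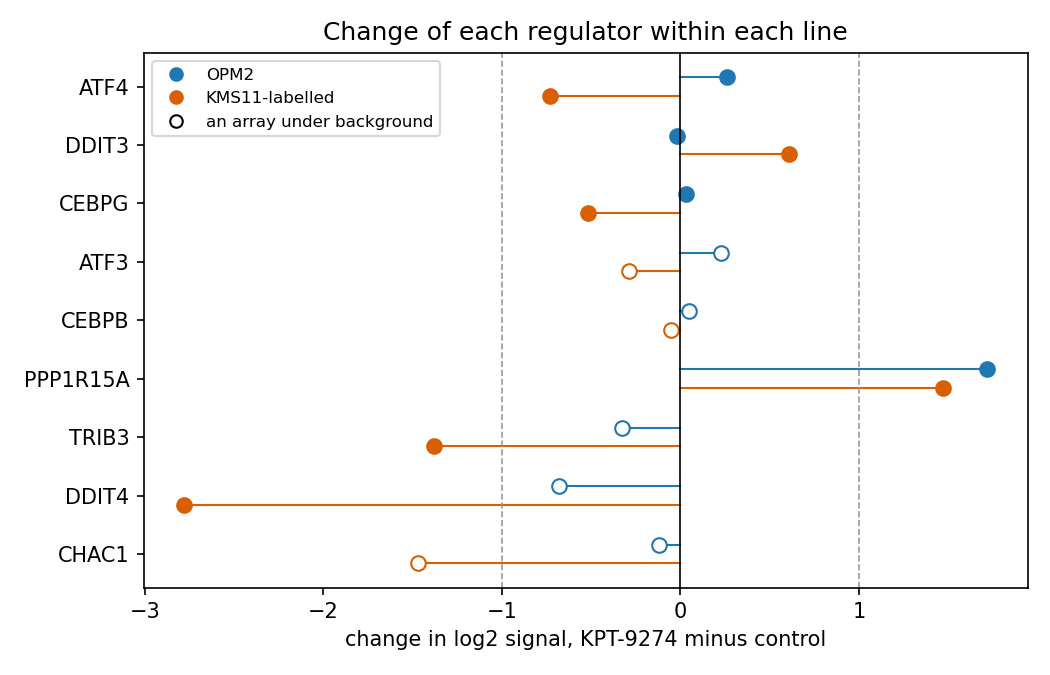
Change in log2 signal (treated minus control, horizontal axis) of 9 regulators in OPM2 (blue) and on the KMS11-labelled arrays (orange), as deposited and with 1 array per line and condition. Dashed lines mark 2-fold and open points rest on at least 1 array under background: PPP1R15A is past 2-fold in both lines, and TRIB3, DDIT4 and CHAC1 are past it on the KMS11-labelled arrays, while their OPM2 points are open and their size there cannot be read.

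Before treatment some of these genes also read differently on the single control arrays of the lines. On the control arrays DDIT4 read 1.94 higher on the KMS11-labelled array than in OPM2 (3.84-fold), ATF4 0.75 and TRIB3 0.73 higher, and DDIT3 1.47 lower (2.77-fold). CHAC1 was above background on the KMS11-labelled control array and on no other array. The KMS11-labelled minus OPM2 differences of the controls were small for PPP1R15A (-0.17), CEBPG (-0.16) and ATF3 (-0.20), and CEBPB was under background on both. How many of all tested genes differ as much between the controls was not computed. After treatment the KMS11-labelled minus OPM2 differences as deposited were -0.16 for DDIT4, -0.24 for ATF4, -0.32 for TRIB3 and -0.34 for CHAC1, where the OPM2 values of DDIT4, TRIB3 and CHAC1 were under background. The single KMS11-labelled control array enters both the difference between controls and the change after treatment, so these values do not stand apart from each other.

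In limma's line contrast, which takes control and treated arrays together, DDIT3 was the 1 regulator of 9 that was higher in OPM2 past the threshold (8.28% of tested genes). Its KMS11-labelled minus OPM2 difference was -1.16 ± 0.24 (SE, adjusted p = 0.0498; 0.0203 to 0.222 over the alternatives). The call was lost with a filter left out, with median centring and with a 1.5-fold threshold in the test. The control and the treated array of a line stood as its replicates here. The p-value of DDIT3 thus does not measure the spread between separate cultures of a line. None of the 9 was higher on the KMS11-labelled arrays (10.8% of tested genes).

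For the 4 regulators measured on all arrays, the KMS11-labelled change minus the OPM2 change was -0.99 for ATF4, -0.55 for CEBPG, 0.63 for DDIT3 and -0.25 for PPP1R15A. With 1 array for each line and condition no such difference can be tested. For the other 5 it cannot be read, because an OPM2 array was under background.

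Upstream of ATF4, the eIF2 kinases and their controllers showed no common direction, with 1 of 9 genes higher in both lines and 4 lower in both. Over all tested genes the shares were 34.9% and 27.9%, and 0 of the 9 passed the test. EIF2AK3, which encodes PERK, the kinase of the endoplasmic reticulum, read 9.92 and 11.31 in OPM2 and 8.35 and 9.29 on the KMS11-labelled arrays (changes 1.39 and 0.94, adjusted p = 0.325). GCN1, which activates the amino acid sensor GCN2, had changes of -0.77 and -0.47. Of 12 genes for eIF2, its exchange factor eIF2B and the constitutive phosphatase, 2 were higher in both lines (34.9% of all tested genes) and 4 lower in both (27.9%), and 0 passed. Among them were EIF2S1, the phosphorylated subunit, at -0.57 and -0.71, and EIF2B2 at 0.35 and 1.39.

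Downstream lie genes that ATF4 is known to switch on, in 3 lists, and whether the lines differ in them was not tested. Of 19 tested genes of amino acid uptake and synthesis, 9 were at least 2-fold lower on the KMS11-labelled arrays and 0 higher (4.43% and 1.64% of all tested genes), with a median change of -0.83. In OPM2 1 of the 19, SLC1A5, was at least 2-fold lower (5.51%) and 2 were higher (2.51%), with a median of 0.04. Of these 2, SLC38A2 was measured on all arrays, and CTH, at 6.21 and 7.31, was under background on both OPM2 arrays, so that its change cannot be read. The transporter SLC1A5 read 11.63 and 10.51 in OPM2 and 12.53 and 9.81 on the KMS11-labelled arrays, and SLC7A5 13.63 and 12.66, and 13.65 and 10.02. The cystine transporter SLC7A11, named after its values were seen, read 8.86 and 9.07 in OPM2 and 12.65 and 8.26 on the KMS11-labelled arrays, the widest difference of the list. No gene of the list passed limma's treatment test.

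Of 12 tRNA synthetases known as ATF4 targets, which load amino acids onto tRNA, 6 were at least 2-fold lower on the KMS11-labelled arrays (4.43% of tested genes) and 0 in OPM2 (5.51%), with medians of -0.98 and -0.02, and 0 passed the test. IARS1 had changes of -0.49 and -1.33 and LARS1 of -0.31 and -0.97, OPM2 first. Of 14 other tested targets of ATF4 and CHOP, 2 were at least 2-fold lower on the KMS11-labelled arrays (4.43% of tested genes) and 1 in OPM2, which is near the share of all tested genes (5.51%). The medians were -0.17 and 0.10, and 0 passed. In that list the growth factor VEGFA had -0.47 and -1.61, and ERO1A, an oxidase of the endoplasmic reticulum, -1.51 and -0.65. GDF15 and FGF21, secreted products often taken as signs of this response, were under background on all 4 arrays.

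**Figure D3:**
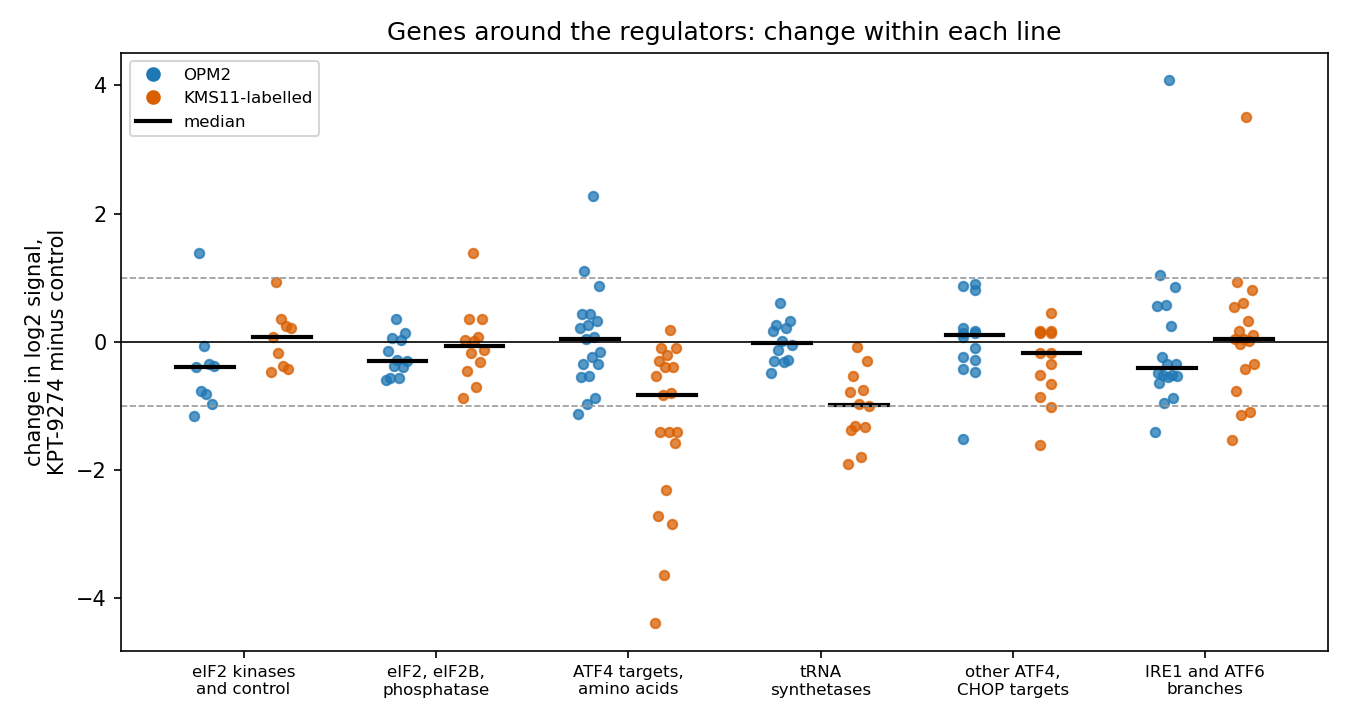
Change in log2 signal (treated minus control, vertical axis) of the tested genes of 6 groups around the regulators, in OPM2 (blue) and on the KMS11-labelled arrays (orange), 1 point per gene, with black bars at medians and dashed lines at 2-fold. On the KMS11-labelled arrays the medians of the amino acid genes and the tRNA synthetases lie at -0.83 and -0.98, against 0.04 and -0.02 in OPM2.

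The other branches of the unfolded protein response were mixed: of 18 tested genes of the IRE1 and ATF6 branches 4 were higher in both lines, 5 lower in both and 9 mixed. Over all tested genes 34.9% were higher in both, 27.9% lower in both and 35.3% opposite, and 0 of the 18 passed the test. XBP1, the factor activated by IRE1, read 12.39 and 10.99 in OPM2 and 11.49 and 10.35 on the KMS11-labelled arrays. CREBRF, which restrains the related factor CREB3, read 7.16 and 11.24, and 7.90 and 11.40, both treated arrays being far above both controls. HSPA5 (BiP), the chaperone that reports unfolded protein, had changes of -0.53 and 0.60.

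Among 15 tested basic leucine zipper relatives, 5 were higher in both lines and 4 lower in both, near the shares of all tested genes (34.9% and 27.9%), and 0 passed. These counts include dim genes. BATF, BATF3 and JUNB, counted as lower, had no OPM2 change that can be read, and BATF2, counted as higher, was under background on all arrays. ATF2 had changes of 1.12 and 0.59, and JUND read 7.66 and then 6.84, under background, in OPM2 and 8.21 and 7.01 on the KMS11-labelled arrays. Of 5 tested paralogs of the regulators none passed the treatment test. CHAC2, the paralog of CHAC1, read 9.15 and then 7.38, under background, in OPM2 and 7.93 and 6.83 on the KMS11-labelled arrays. TRIB1, a paralog of TRIB3, read 9.48 and 8.45 in OPM2 and was under background on both KMS11-labelled arrays.

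For each regulator above background on all 4 arrays, the tested gene with the nearest pattern was sought over the 4 arrays, by the largest difference between mean-centred values. KDM3A, a histone demethylase, was nearest to PPP1R15A, with 9.68 and 11.15 in OPM2 and 9.48 and 10.70 on the KMS11-labelled arrays (largest difference 0.14), and 4 genes lay within 0.25. FGD4 was nearest to DDIT3 (0.04) and MTHFD2L to CEBPG (0.03), each under background on 1 array, and DEFB131B, under background on all 4 arrays, to ATF4 (0.06). Within 0.25 lay 132 genes for DDIT3, 421 for CEBPG and 205 for ATF4, so 4 arrays set few patterns apart.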

How the data were processed

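RNA was measured on 4 whole-transcript arrays, 1 per line and condition. The authors deposited log2 signal, and the submitters' processing notes name the Transcriptome Analysis Console. Which summarization, normalization and build it used is not given in the sources used here. That the scale is log2 was read from the values, which run from 2.49 to 19.74. The number of arrays limits the precision, and p-values measure only the spread between these arrays.

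Of 65528 clusters, 22755 had 1 gene symbol, 1389 several and 41384 none here. Symbols were updated by gene number for 20539, by symbol for 1916 and by an older symbol for 296, and 4 were kept. The brightest cluster stood for a gene (345 genes had several), and the dimmest 25% of genes (mean at most 5.40) were left out. In R 4.3.3, limma 3.58.1 (lmFit, eBayes, 1 residual and 2.79 prior degrees of freedom) was fitted with line and agent, two-sided, with Benjamini-Hochberg adjustment over all tested genes at 0.05. The fit was also run on simulated data, with spread drawn from its own prior and the same change planted in both lines. Such data cannot show how well the fit suits these 4 arrays. Within a line there is no test. A change with 1 array under background is a bound, and none is given where the dim array's background lies past the other value. From each list the 2 genes with the largest smaller change of the same sign in both lines were named, along with HSPA5, GDF15, FGF21, SLC7A11 and PPP1R15B, chosen outside that rule with values known, and the markers of the label check. The members and lists were chosen with earlier results of these data known. Alternatives were other normalizations, filters, cluster rules, priors and thresholds and a fit with no term for the line. 0 value columns were left aside.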

Additional observations from a re-analysis of the deposited data

Results flagged for a closer look

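The changes of the 2 lines pointed opposite ways for 9 genes, each above background on all 4 arrays, among the 4 regulators so measured and 110 genes of the lists around them. Each change had to be at least 0.203 in size, the prior SD of the fit, and for list genes a 2-fold change in 1 line was also required. That SD is for a single array value, and a difference of 2 arrays spreads more widely, so this size does not set a change apart from noise. DDIT3, CEBPG and PSAT1 also had opposite signs, with an OPM2 change under that size. Opposite signs are frequent: 35.3% of all tested genes had them, with no limit on size or background. The share of all tested genes under the limits used here was not computed. The difference was not tested, since each line has 1 array per condition. The OPM2 changes of the list genes were not followed gene by gene over the scalings. ATF4 had a change of 0.26 in OPM2, which was 0.11 under median centring and so below 0.203, and -0.73 on the KMS11-labelled arrays. Among its targets ASNS, which makes asparagine, had 0.44 and -1.41, PHGDH, which opens serine synthesis, 0.26 and -1.40, and SLC7A11 0.21 and -4.39. The glutamine transporter SLC38A2 had 2.28 and -0.80. The tRNA synthetases AARS1 and GARS1 had 0.21 and -1.32, and 0.27 and -1.0. HERPUD1, a component of protein degradation at the endoplasmic reticulum, had 0.56 and -1.09. EIF2AK2, which encodes the eIF2 kinase PKR, went the other way with -1.16 and 0.24.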

How the results depend on the processing

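No regulator passed the treatment test under any of 9 other settings, and CEBPB was not tested under the stricter filter. The counts of regulators at least 2-fold apart within a line were the same under the 6 alternatives of scaling, filter and clusters, and with changes taken as bounds against background, an alternative chosen after seeing the data. In the line contrast the count higher in OPM2 went from 1 to 0 under median centring, without a filter and with the 1.5-fold threshold, where DDIT3 had adjusted p = 0.0771, 0.0663 and 0.222, and the cause was not tested. The scaling moved the median change of all genes in OPM2 from 0.03 to -0.17 (quantile normalization), -0.12 (median centring) and -0.18 (cyclic loess), so small OPM2 changes have no settled sign: ATF3 ranged from -0.05 to 0.23 and CEBPB from -0.29 to 0.05. Over these settings PPP1R15A ranged from 1.57 to 1.75 in OPM2 and 1.45 to 1.55 on the KMS11-labelled arrays, and DDIT4 from -2.80 to -2.57, TRIB3 from -1.40 to -1.16 and CHAC1 from -1.49 to -1.30 on the latter. Counts of signs move with the scaling: of the 9 regulators, dim ones included, 3 were lower in both lines as deposited, against 27.9% of all tested genes. It was 4 of the 9 after quantile normalization and 5 after median centring or cyclic loess, and of the 12 genes of eIF2 and eIF2B 4 to 7. The amino acid genes at least 2-fold lower there stayed at 9, and the tRNA synthetases at 5 or 6. In OPM2 2 amino acid genes were at least 2-fold lower after quantile normalization and 3 after median centring, against 1 as deposited. No array can be left out in turn, since no residual degree of freedom would remain.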
